A study of Mus musculus with 15 samples.

Results

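The genes described here are 8 genes of fatty acid and sterol synthesis in mouse skeletal muscle: Acly, Acaca, Fasn, Elovl6, Elovl5, Scd2, Srebf1 and Srebf2. The rule lists them by gene name, with no cut on a measured value, but they were chosen with earlier results of these data known. They are 8 of the 19057 genes that the array annotation names. They were read by 11 of the 45281 probes. RNA of the tibialis anterior (TA) muscle of male mice, C57BL/6 aged 8 to 10 weeks in the labels and C57BL/6J aged 9 to 10 weeks in the study's methods, was hybridised to bead arrays, 1 array per sample, 15 in all. The 5 samples labelled Ctrl came from mice injected with PBS, and the 5 labelled Dox from mice given a single dose of 15 mg/kg doxorubicin, an anthracycline used in chemotherapy. The 5 labelled Dox + sACVR2B came from mice given the same doxorubicin dose 48 hours after sACVR2B-Fc at 10 mg/kg, the ligand-binding part of an activin receptor joined to an antibody's Fc, which captures myostatin and activins. The TA muscle was taken 20 hours after the doxorubicin or PBS injection, and no group received sACVR2B-Fc alone.

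Lipid synthesis starts in the cytosol, where ATP citrate lyase (Acly) cuts citrate into acetyl-CoA, acetyl-CoA carboxylase (Acaca) makes malonyl-CoA and fatty acid synthase (Fasn) builds palmitate. Elongases such as Elovl6 and Elovl5 lengthen the chains, the former acting on saturated and monounsaturated and the latter on polyunsaturated fatty acids, and stearoyl-CoA desaturases such as Scd2 put in a double bond. The transcription factors encoded by Srebf1 and Srebf2 are released from membranes by proteolysis and drive mainly the fatty acid and the sterol genes, respectively. Muscle fibres make less fat than liver or adipose tissue, and fat cells lie between the fibres of a whole muscle.

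The labels were doubtful in 6 of the 15 libraries. Cdkn1a, a p53 target that encodes the cell cycle inhibitor p21 and is known to rise after DNA damage by doxorubicin, read 1000 or more in 10 libraries (2359 to 4634) and under 1000 in 5 (132 to 359). The high libraries included Ctrl 1, Ctrl 4 and Ctrl 5, and the low ones included Dox 2, Dox + sACVR2B 4 and Dox + sACVR2B 5. All groups are therefore given as libraries labelled Ctrl, Dox or Dox + sACVR2B, and the main results are also given without these 6. Signals were normalised by the authors to nearly the same distribution on each array, so overall brightness carries no difference between arrays. Pearson correlations between pairs of arrays ran from 0.967 to 0.994 over the probes. All 7 muscle fibre genes with a probe were above noise on every array, led by Actn3 and Tnni2, the fast-fibre alpha-actinin and troponin I.

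Of the 8 genes, 7 had a probe above noise, taken as a signal over 12.4 on at least 5 arrays. Acaca was not among them: its signals lay between -9.3 and 11.1 on the 15 arrays, so no level of it was measured. Single probes read Acly, Fasn, Elovl5 and Scd2. Elovl6 and Srebf1 each had another probe that was above noise on 0 arrays, and both Srebf2 probes were above noise on all 15. Each gene is given by its brightest probe, and since probes differ in efficiency the signals of different genes are not set against each other.

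Promoter windows were matched to 7 of the 8 genes, all but Scd2. The 250 bases before the transcription start are shown for Elovl5 and Acly, whose signals did not overlap between the labels Ctrl and Dox, and for Srebf2, the one gene of the set whose window held the sterol regulatory element core. The sequences are RefSeq's, build GRCm38.p6, in the direction of transcription, at chr9:77917115-77917364 on the plus strand for Elovl5, chr11:100528001-100528250 on the minus strand for Acly and chr15:82147019-82147268 on the plus strand for Srebf2. Capitals mark matches on either strand to 4 motifs.
Elovl5: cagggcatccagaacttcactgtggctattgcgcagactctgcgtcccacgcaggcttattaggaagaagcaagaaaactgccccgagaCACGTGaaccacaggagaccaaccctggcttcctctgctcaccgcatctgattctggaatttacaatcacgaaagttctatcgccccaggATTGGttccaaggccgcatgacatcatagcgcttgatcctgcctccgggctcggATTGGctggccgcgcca
Acly: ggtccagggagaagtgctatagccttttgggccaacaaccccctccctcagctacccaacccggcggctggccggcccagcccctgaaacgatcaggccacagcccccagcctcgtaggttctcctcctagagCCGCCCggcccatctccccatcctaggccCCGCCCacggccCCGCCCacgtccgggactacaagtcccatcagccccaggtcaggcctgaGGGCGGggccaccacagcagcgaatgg
Srebf2: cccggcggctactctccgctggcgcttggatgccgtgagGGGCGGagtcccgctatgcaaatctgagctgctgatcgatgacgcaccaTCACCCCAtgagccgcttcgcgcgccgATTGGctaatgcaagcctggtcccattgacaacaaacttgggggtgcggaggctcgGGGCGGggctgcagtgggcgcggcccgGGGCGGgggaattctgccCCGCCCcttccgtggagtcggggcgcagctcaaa
The motifs searched were the sterol regulatory element core TCACNCCA, the E-box CACGTG, the CCAAT box CCAAT and the GC box GGGCGG. They do not overlap one another in these windows. The Elovl5 window held 1 E-box, a motif found in 6.02% of the 32851 promoter windows of the same length, and 2 CCAAT boxes, found in 33.8%. The Acly window held 4 GC boxes, a motif of 32.7% of windows, and none of the other motifs. Srebf2 held 1 sterol regulatory element core, found in 3.67% of windows, with 1 CCAAT box and 4 GC boxes. The 9 windows of the 7 genes held no other sterol regulatory element core. A match is a description of the letters and no evidence of binding.

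In the libraries labelled Dox, Elovl5 and Acly were lower than in those labelled Ctrl, with no overlap between the 5 and 5 arrays, but neither passed a test adjusted over all probes, and the other members overlapped. Elovl5, which elongates polyunsaturated fatty acids, read 1967, 1787, 1435, 1775 and 1525 in Ctrl 1 to 5. In Dox 1 to 5 it read 1156, 1220, 1286, 1246 and 1216. In Dox + sACVR2B 1 to 5 it read 1545, 1531, 1200, 1414 and 1346. The highest library labelled Dox was below the lowest labelled Ctrl, and the libraries labelled Dox + sACVR2B lay across both ranges. On the log2(signal + 50) scale the mean was 10.76 ± 0.18 (SD, n = 5) in Ctrl, 10.32 ± 0.05 in Dox and 10.50 ± 0.14 in Dox + sACVR2B. The log2 difference of Dox against Ctrl was -0.45 (SE 0.10, 95% interval -0.65 to -0.25), a ratio of 0.733. It did not pass limma's test after Benjamini-Hochberg adjustment over 21307 probes (adjusted p = 0.25), in which no probe passed for this comparison. A two-sided exact permutation test of this gene alone gave p = 0.00794, the smallest value that 5 against 5 arrays allow. In whole muscle, fewer cells of a type and less RNA per cell cannot be told apart.

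Acly, which supplies cytosolic acetyl-CoA, read 1663, 1919, 1590, 1448 and 1444 in Ctrl 1 to 5. In Dox 1 to 5 it read 1423, 1404, 1254, 1108 and 1196. In Dox + sACVR2B 1 to 5 it read 1451, 1430, 1215, 1597 and 1473. The ranges labelled Ctrl and Dox were separated by a narrow gap, between Dox 1 and Ctrl 5, and 4 of the 5 libraries labelled Dox + sACVR2B were above every library labelled Dox. The log2 difference of Dox against Ctrl was -0.32 (SE 0.10, ratio 0.799, limma adjusted p = 0.343), with an exact permutation p of 0.00794.

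These 2 of the 7 genes above noise were lower without overlap, where 0.526% of the 21307 probes were. Likewise 2 of 7 were lower at an unadjusted limma p under 0.05, against 5.20% of probes lower and 10.0% in either direction, while 0% of probes were called at an adjusted p under 0.05. All 7 log2 differences were below 0, with a median of -0.20, and the median over the 11458 named genes above noise was -0.00062. Those of Fasn (-0.06), Srebf1 (-0.17) and Srebf2 (-0.01) were smaller than their SE, and the other Srebf2 probe gave 0.02. The levels of Elovl5 and Acly were correlated over the arrays (r = 0.70), so the 2 genes are not independent of each other.

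**Figure D1:**
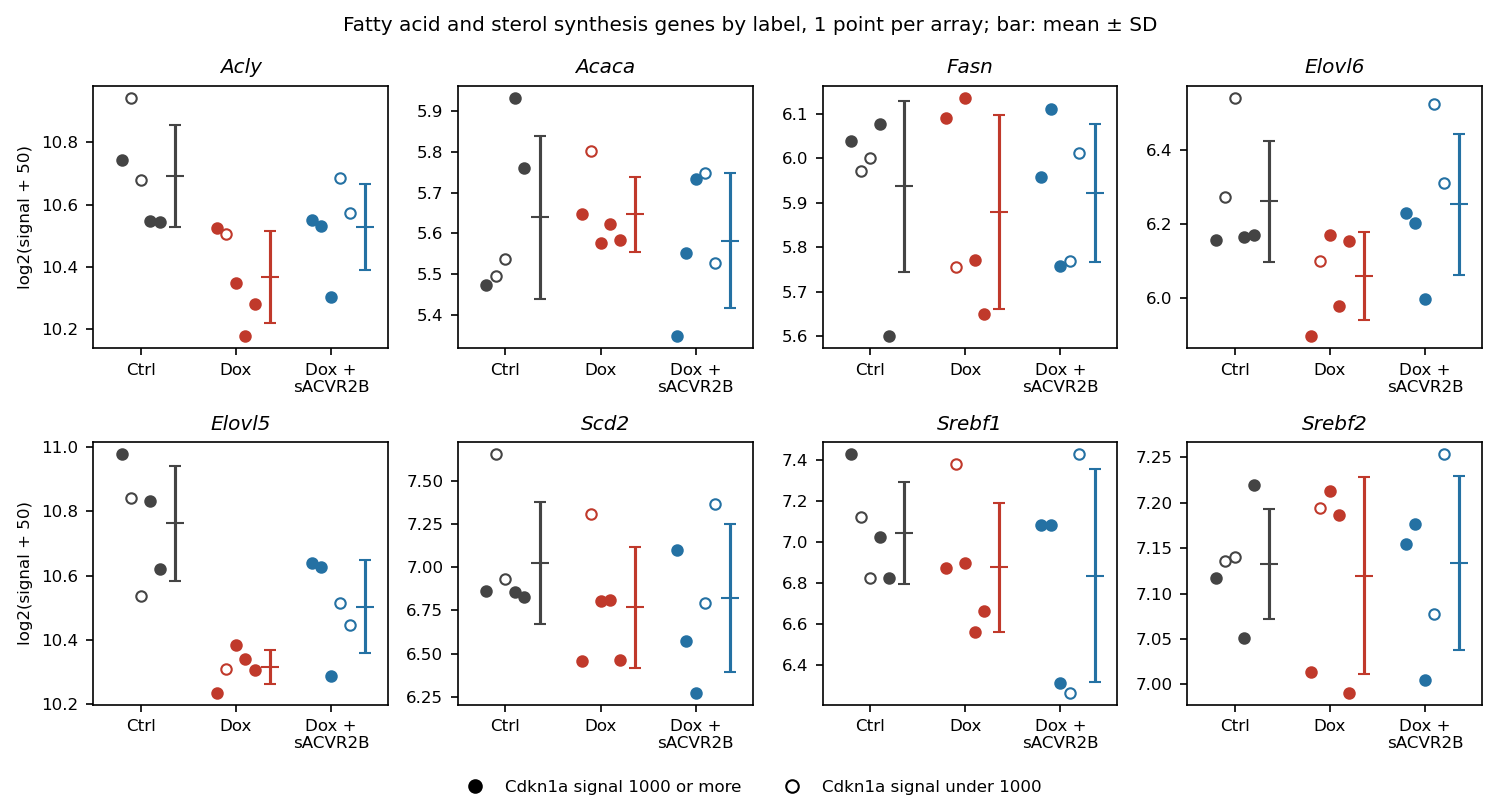
Level of each of the 8 genes as log2(signal + 50) by label, 1 point per array, with the mean ± SD of the 5 arrays beside the points. Filled points are arrays with a Cdkn1a signal of 1000 or more and open points those under 1000. The 5 libraries labelled Dox lie below all 5 labelled Ctrl for Elovl5 and Acly and overlap them for the other genes, and Acaca is at the level of noise.

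Among the other genes of chain building, Elovl6, the elongase of palmitate, read 21.3 to 43.2 in the libraries labelled Ctrl (median 22), 9.5 to 22 in those labelled Dox (median 18.6) and 13.8 to 42.2 in those labelled Dox + sACVR2B (median 25.1). Its log2 difference of Dox against Ctrl was -0.20 (SE 0.11, limma adjusted p = 0.533), and these signals were close to the noise threshold. Fasn, which makes palmitate, was above noise on only 8 of the 15 arrays, at -1.5 to 20.3, and its log2 difference was -0.06 (SE 0.12). No level of Fasn beyond noise could be compared between labels.

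The desaturase gene Scd2 read 66.3, 151.5, 72.3, 65.9 and 63.5 in Ctrl 1 to 5. In the libraries labelled Dox it read 37.8, 108.8, 62, 62.1 and 38.1, and in those labelled Dox + sACVR2B 87.1, 45.1, 27.4, 61 and 115.1. The highest library of each label was one with low Cdkn1a: Ctrl 2, Dox 2 and Dox + sACVR2B 5. The log2 difference of Dox against Ctrl was -0.26 (SE 0.21, limma adjusted p = 0.696), and it was -0.10 without Ctrl 2 and -0.39 without Dox 2.

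The regulators overlapped in range under all 3 labels. Srebf1 read 63.2 to 122.3 in the libraries labelled Ctrl, 44.4 to 116.8 in those labelled Dox and 26.8 to 122.4 in those labelled Dox + sACVR2B. Its log2 difference of Dox against Ctrl was -0.17 (SE 0.21). Srebf2 varied least of the 7, at 82.6 to 99.1 in the libraries labelled Ctrl, 77.2 to 98.4 in those labelled Dox and 78.4 to 102.6 in those labelled Dox + sACVR2B, with a log2 difference of -0.01 (SE 0.08, 95% interval -0.18 to 0.15). Its other probe gave 0.02.

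Whether the genes differed when sACVR2B-Fc was given ahead of doxorubicin was asked next. The libraries labelled Dox + sACVR2B against Dox gave log2 differences of 0.19 for Elovl5 (SE 0.10, 95% interval -0.01 to 0.39, exact permutation p = 0.0397), 0.19 for Elovl6 (exact permutation p = 0.0873) and 0.16 for Acly (exact permutation p = 0.0873). The remaining genes lay between -0.04 (Srebf1) and 0.05 (Scd2). Of the 7 genes 0 passed an unadjusted limma p of 0.05, against 4.13% of probes (1.89% lower and 2.24% higher), and 0 passed the adjusted test, in which every one of these 3 had an adjusted p of 0.996. Against the libraries labelled Ctrl, those labelled Dox + sACVR2B had a log2 difference of -0.26 in Elovl5 (SE 0.10, 95% interval -0.46 to -0.06, exact permutation p = 0.0476, limma adjusted p = 0.502). Elovl5 was the 1 gene of the 7 lower at an unadjusted limma p under 0.05 there, against 3.81% of probes lower, 5.16% higher and 8.96% in either direction. Acly differed by -0.16 and Elovl6 by -0.01. The 3 comparisons share their samples in pairs, so their signs are not independent: the same 5 libraries labelled Dox enter the comparisons with the other labels.

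**Figure D2:**
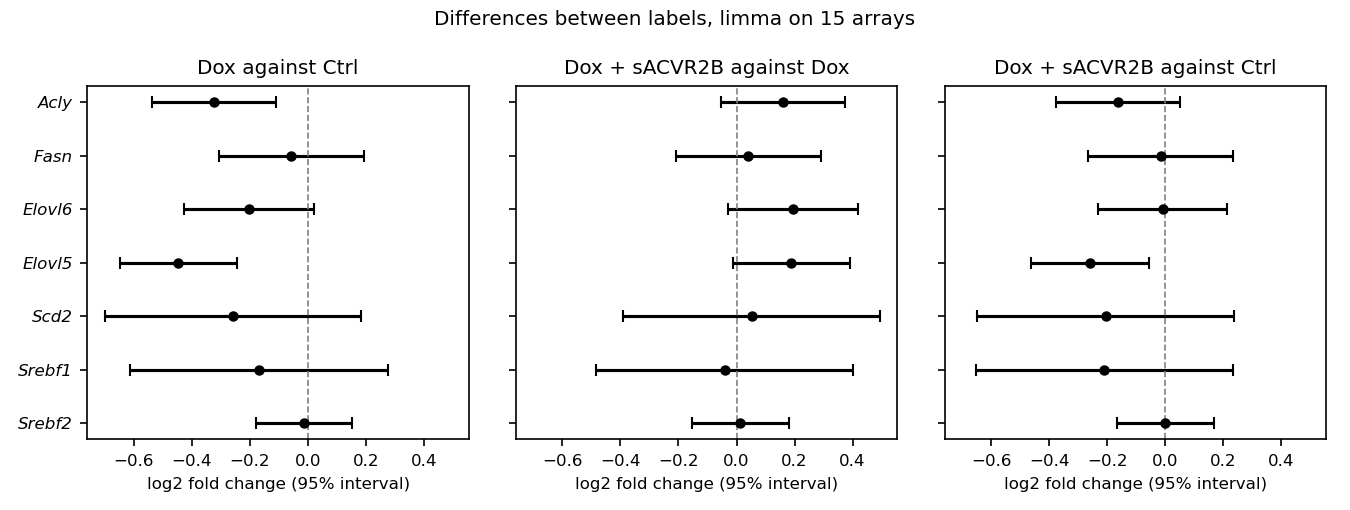
Log2 difference between labels for the 7 genes above noise, in 3 comparisons, each point the limma estimate and each bar its 95% interval, from 15 arrays. In Dox against Ctrl the interval of Elovl5 (-0.65 to -0.25) and of Acly (-0.54 to -0.11) lies below 0 before adjustment, and no gene passed after adjustment.

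Sorting the same arrays by Cdkn1a in place of the label gave another order of the genes. These sets of 10 and 5 arrays were cut from a measured value and are described without a test. Elovl5 had nearly the same median in both sets: it ran from 1156 to 1967 (median 1406) on the 10 arrays with a Cdkn1a signal of 1000 or more, and from 1220 to 1787 (median 1414) on the 5 arrays under 1000. Acly, in contrast, ran from 1108 to 1663 (median 1427) at high Cdkn1a and from 1404 to 1919 (median 1590) at low Cdkn1a. Of the 5 arrays highest in Acly, 4 were low in Cdkn1a.

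Scd2 and Elovl6 had the same arrangement, with 4 of their 5 highest arrays low in Cdkn1a. The share of all probes with this arrangement was not counted. Scd2 ran from 27.4 to 87.1 (median 62.1) at high Cdkn1a and from 61 to 151.5 (median 109) at low Cdkn1a. Elovl6 ran from 9.5 to 25.1 (median 21.6) and from 18.6 to 43.2 (median 29.4), respectively. Fasn, close to noise, had medians of 13.95 and 12.7, and 0 of its 5 highest arrays were low in Cdkn1a. For Srebf1 the medians were 68.3 and 89.1 and for the brightest probe of Srebf2 90.7 and 91.1, with wide overlap. The other Srebf2 probe overlapped less. It ran from 14.8 to 36.5 (median 26.7) at high Cdkn1a and from 33.5 to 39.5 (median 34.2) at low Cdkn1a. Of its 5 highest arrays, 4 were low in Cdkn1a. None of the 7 genes separated the 2 sets without overlap, where 1.49% of the probes were lower and 1.99% higher at high Cdkn1a.

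Some other genes of the pathways, from lists of 24 fatty acid and 29 sterol genes, did separate the 2 sets. Of 18 fatty acid genes above noise 2 were lower without overlap at high Cdkn1a, Fads1 and Mlxipl. Of 21 sterol genes 1 was, Stard4, where 1.49% of all probes were. Fads1, a desaturase of polyunsaturated fatty acids, read 623 to 982 on the 10 arrays high in Cdkn1a and 1167 to 1865 on the 5 low ones. Mlxipl, which encodes the carbohydrate-responsive factor ChREBP, read 798 to 1394 and 1532 to 1883. Stard4, a cytosolic cholesterol carrier, read 25.8 to 53.3 and 71.7 to 119.5. Sqle, the squalene epoxidase of sterol synthesis, overlapped, at 13.6 to 51 and 38.1 to 111.2. Of either list, 0 genes were higher without overlap at high Cdkn1a, where 1.99% of all probes were.

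**Figure D3:**
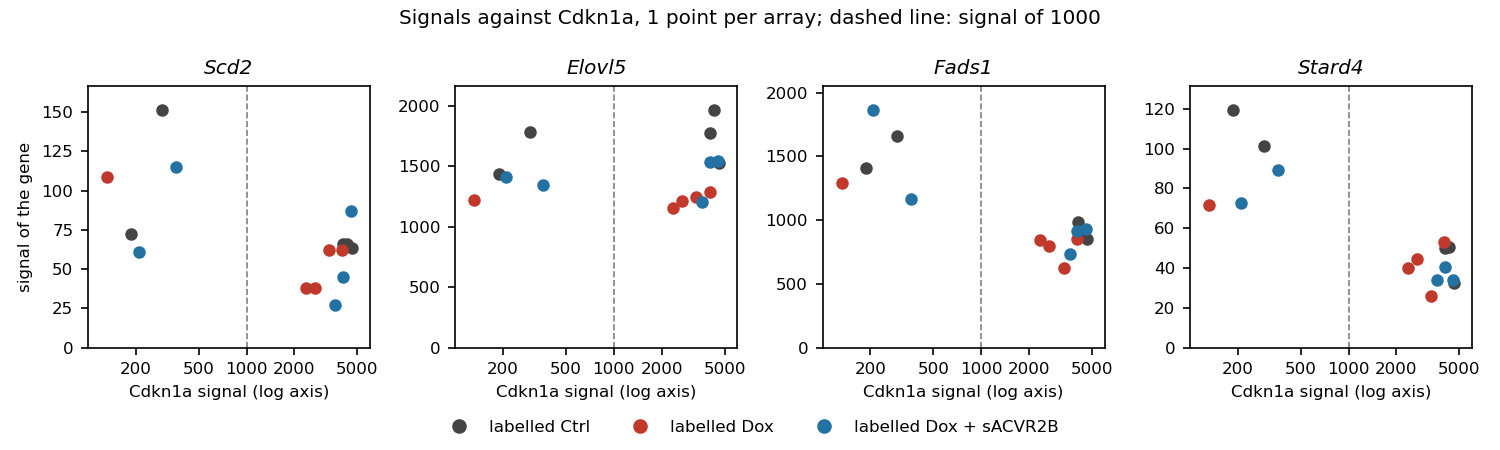
Signals of Scd2, Elovl5, Fads1 and Stard4 (vertical axes, linear) against the Cdkn1a signal (log axis), 1 point per array, coloured by label, with a dashed line at 1000. Fads1 and Stard4 are higher on all 5 arrays left of the line than on the 10 to its right, Scd2 overlaps, and Elovl5 has its highest and its lowest arrays to the right.

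With the 6 doubtful libraries left out, 4 libraries labelled Dox, all high in Cdkn1a, stood against 2 labelled Ctrl, both low. Since the libraries were left out by Cdkn1a, this comparison cannot be told apart from the split above and is given as a description. No member was past limma's adjusted threshold, where 8.86% of probes were (4.30% lower and 4.56% higher). The log2 differences were -0.48 for Acly, -0.37 for Elovl5, -0.36 for Elovl6 and -0.66 for Scd2, with a median of -0.36 over the 7 genes. With the 5 libraries low in Cdkn1a left out instead, 4 libraries labelled Dox stood against 3 labelled Ctrl, and no probe passed. The 3 labelled Ctrl were Ctrl 1, Ctrl 4 and Ctrl 5, all of them among the 6 doubtful libraries. In that comparison Elovl5 differed by -0.49 (SE 0.12, limma adjusted p = 0.194) and Acly by -0.28 (limma adjusted p = 0.365). Without the 6 doubtful libraries, the 7 genes had a median log2 difference of 0.08 in Dox + sACVR2B against Dox, where no probe passed, and of -0.17 in Dox + sACVR2B against Ctrl, where no member passed.

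Across the full set of 15 arrays, the genes of the pathway lists lay on both sides of 0. No gene of either list passed limma's adjusted test in any of the 3 comparisons. In Dox against Ctrl 9 fatty acid genes had differences above 0 and 9 below (median -0.05), and 13 sterol genes were above and 8 below (median 0.04). At an unadjusted limma p under 0.05 stood 1 of 18 fatty acid and 2 of 21 sterol genes, all higher, against 4.80% of probes higher. Hacd1, a dehydratase of chain elongation known for its expression in muscle, read 3963 to 5181 in the libraries labelled Ctrl and 5268 to 5787 in those labelled Dox, without overlap (log2 difference 0.32, SE 0.13, limma adjusted p = 0.443), where 0.662% of probes were higher without overlap. The next 2 of the list by p, Hacd3 and Hacd2, which encode enzymes of the same step, differed by -0.16 and -0.19. In the sterol list, the 3 of smallest p were Hsd17b7, a sterol ketoreductase (0.22, adjusted p = 0.466), Pmvk, the phosphomevalonate kinase (0.25, adjusted p = 0.482), and Lbr, a sterol reductase of the nuclear envelope (-0.23).

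The libraries labelled Dox + sACVR2B against Dox gave a median of 0.05 over the fatty acid list and 0.02 over the sterol list. Smallest in p were Hacd2 (0.27), Fads2, a desaturase of polyunsaturated fatty acids (-0.21), and Fads1 (0.30), then Hsd17b7 (-0.24), Mbtps1, a protease that cleaves the Srebf proteins (0.22), and the sterol desaturase Sc5d (0.27). Sc5d read 45.8 to 66.2 in the libraries labelled Dox and 67.2 to 84.7 in those labelled Dox + sACVR2B, without overlap, where 0.493% of probes were higher. Against Ctrl, the medians were 0.05 and 0.04. By its brightest probe no gene of the lists was higher without overlap, where 1.01% of probes were. A dimmer probe of Hacd1 was, with a log2 difference of 0.19. The genes of smallest p were Thrsp, a lipogenic regulator (-0.23), the malic enzyme Me1 (-0.31) and Hacd1 (0.20), with Pmvk (0.35, adjusted p = 0.469), the mevalonate diphosphate decarboxylase Mvd (0.45, adjusted p = 0.469) and Sc5d (0.36, adjusted p = 0.521).

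Without the 6 doubtful libraries, 2 of the 18 fatty acid and 4 of the 21 sterol genes above noise were past limma's adjusted threshold in Dox against Ctrl, where 8.86% of probes were (4.30% lower and 4.56% higher). As these libraries were left out by Cdkn1a, the count describes the Cdkn1a split again and is no test of the label, and the values are given without p. The log2 differences were -0.82 for Stard4, -0.94 for Fads1, -0.76 for Sqle and -0.68 for Mlxipl, and 0.61 for Mvd and 0.40 for Hsd17b7. In Dox + sACVR2B against Ctrl, where 5.52% of probes passed (2.41% lower and 3.11% higher), the same genes except Hsd17b7 did, in the same directions. With the 5 libraries low in Cdkn1a left out, none passed, and Mlxipl differed by 0.43 (adjusted p = 0.269), with the opposite sign.

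Fat between the fibres was followed by Adipoq, which encodes the adipocyte hormone adiponectin. Its signal varied widely within each label: 309.6, 44.8, 197.4, 706 and 514 in Ctrl 1 to 5, and 279 to 772 in the libraries labelled Dox. In those labelled Dox + sACVR2B it ran from 147.6 to 1480. The extremes were Dox + sACVR2B 5 at the top and Ctrl 2 at the bottom, and the log2 difference of Dox against Ctrl was 0.42 (SE 0.55). Of the 13 adipocyte genes 12 had a probe and 7 were above noise, and their summed signal ran from 2857 to 5276 in the libraries labelled Ctrl, 2192 to 5328 in those labelled Dox and 2768 to 6465 in those labelled Dox + sACVR2B. The probes of Fabp4 and Ucp1 were above noise on 0 arrays, Retn on 2 and Plin1 and Pck1 on 3 each. The summed signal was led by Plin4, a lipid droplet protein also made by muscle, and by Adipoq.

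To ask whether the signals follow the fat in a sample, each gene was correlated with Adipoq across the 15 arrays. None of the 8 correlations passed a permutation test with Benjamini-Hochberg adjustment over the 8. For Elovl5 Pearson's r was -0.19 (permutation p = 0.506, adjusted p = 0.738) and Spearman's rho -0.14 (p = 0.62). For Acly r was -0.31 (permutation p = 0.259, adjusted p = 0.69) and rho -0.20 (p = 0.475). Both signs depended on 1 array: without Ctrl 2, r was 0.050 for Elovl5 and 0.048 for Acly, and on the 10 arrays high in Cdkn1a it was 0.33 and 0.24. The largest r was that of Srebf1, at 0.37 (permutation p = 0.17, adjusted p = 0.69; rho 0.39). Srebf2 had r = 0.32 (permutation p = 0.251; rho 0.46), Acaca 0.18, Fasn -0.04 and Elovl6 -0.17. Acaca was at noise throughout and its r describes noise.

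The correlation of Scd2 changed most when single arrays were left out. Over all 15 arrays r was 0.13 (permutation p = 0.646, adjusted p = 0.738; rho 0.33). Without the 2 arrays farthest from the median of Adipoq, Dox + sACVR2B 5 and Ctrl 2, it was 0.59 (permutation p = 0.0326, n = 13), and over the 10 arrays high in Cdkn1a it was 0.68 (permutation p = 0.0289). Without Ctrl 2 alone, which had the highest Scd2 and the lowest Adipoq, r was 0.72 and passed the permutation test adjusted over the 8 genes (adjusted p = 0.0326). Without Dox + sACVR2B 5 alone it was -0.09. The coefficient of Scd2 over all 15 arrays thus depends on single arrays, and it was highest with Ctrl 2 left out. As a description of the adipocyte genes above noise on the same arrays, r with Adipoq was 0.96 for Cidec, 0.82 for Lep and 0.56 for Trarg1. It was -0.15 for Plin4, -0.06 for Cidea and -0.0005 for Aqp7, so only part of the list followed Adipoq. For Scd1, the main desaturase of adipose tissue, r was 0.65. Over the other 11457 named genes the median r was 0.0068, and 5.97% had an r of 0.5 or more in size.

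**Figure D4:**
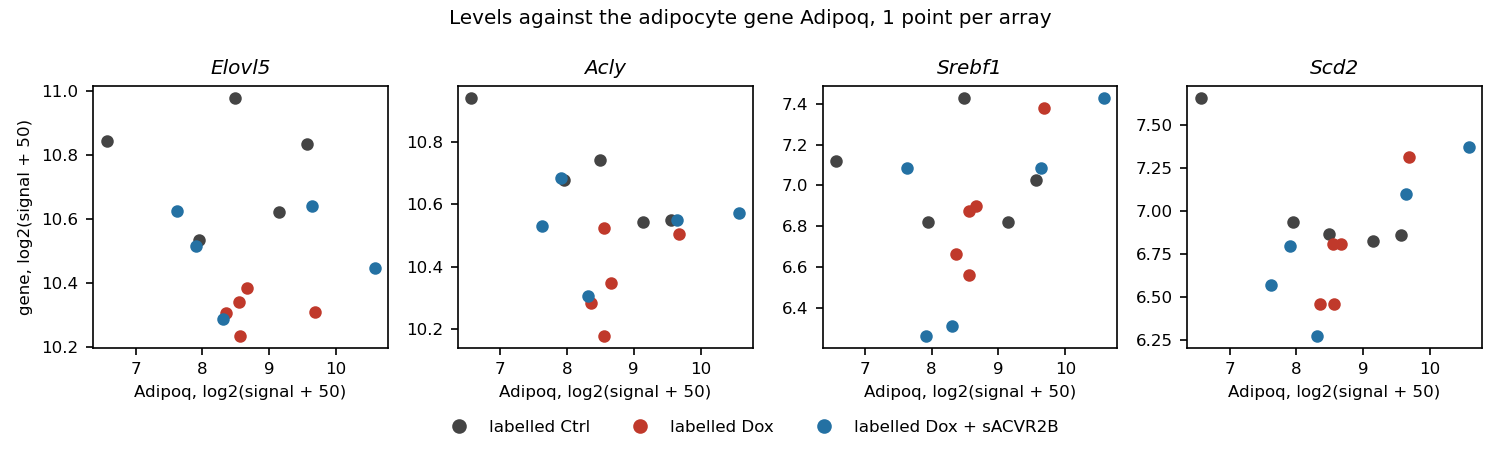
Levels of Elovl5, Acly, Srebf1 and Scd2 against Adipoq, all as log2(signal + 50), 1 point per array, coloured by label. Elovl5 (r = -0.19) and Acly (r = -0.31) have coefficients below 0 that turn without Ctrl 2, the array farthest left, Srebf1 has r = 0.37, and Scd2 (r = 0.13) has 1 array at top left, Ctrl 2, apart from the others.

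Schwann cell and macrophage genes were also followed, since nerve and immune cells lie in whole muscle. The summed signal of 5 Schwann cell genes above noise, led by Pmp22 and Mbp, ran from 2319 to 3043 in the libraries labelled Ctrl, 1853 to 3357 in those labelled Dox and 2002 to 2609 in those labelled Dox + sACVR2B. That of 4 macrophage genes, led by Mrc1 and Cd163, ran from 388 to 834, 366 to 999.7 and 286.5 to 769. The ranges of the sums overlapped between labels, but single markers differed in Dox against Ctrl at an unadjusted limma p under 0.05. They were 1 of 7 adipocyte, 1 of 5 Schwann cell and 1 of 4 macrophage genes, all higher. Of all probes, 4.80% were higher at this threshold and 10.0% differed in either direction. These were Cidea, a lipid droplet protein (log2 difference 0.79, SE 0.26, limma adjusted p = 0.351), Mag, a myelin glycoprotein (0.21, SE 0.09, limma adjusted p = 0.456), and the scavenger receptor gene Cd163 (0.56, SE 0.24, limma adjusted p = 0.453). With all arrays, 5 of 7 adipocyte, 2 of 5 Schwann cell and 3 of 4 macrophage genes had differences above 0 in this comparison. Without the 6 doubtful libraries, Cidea (1.23) and Cd163 (1.03) were among the 8.86% of probes past the adjusted threshold. As these libraries were left out by Cdkn1a, this describes the Cdkn1a split and is no test of the label. The part of these cells in the levels of the 8 genes was not tested.

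Among themselves, the genes varied in part together. Over the 15 arrays, which share label effects, Pearson's r was 0.70 between Acly and Elovl5, 0.61 between Scd2 and Srebf1, 0.60 between Acly and Scd2, 0.60 between Scd2 and Srebf2 and 0.56 between Acly and Elovl6. It was lowest, at -0.01, between Elovl6 and Srebf1. Elovl5 and Acly had the highest r of the 21 pairs. Outside the set, the named genes whose levels were most like those of a member over the 15 arrays, of 11457 genes, were Ccm2l (r = 0.87), Tek (0.86) and Col28a1 (0.86) for Elovl5. For Acly they were Tcf4, Nfat5 and Timp1 (0.91 each). For Scd2 they were Dram1 (0.90), Nudt5 (0.89) and Psmb10 (0.88), and for Elovl6 Ngfr (0.87), Dsel (0.87) and Cacna1g (0.85). Srebf1 was nearest to Gper1 (0.84), Igfn1 (0.82) and Tshz2 (0.81), Srebf2 to Mta3 (0.81), Gng7 (0.81) and Pigt (0.78), and Fasn, close to noise, to Akr1a1 (0.84), Cdc45 (0.80) and Gtf2e2 (0.79). These values are the highest of many and carry no test.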

How the data were processed

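Signals of 15 bead arrays were analysed as deposited by the authors: an intensity per probe, quantile-normalised between arrays and, as the 34.0% of values below 0 show, background-subtracted (range -25 to 29731). The deposited table with the values before normalisation has 30 columns that match no label and was not used. Levels are log2(signal + 50). The noise threshold, 12.4, is the one-sided 95% point of a normal distribution with the SD of the mirrored negative values (7.52), and 21307 probes above it on at least 5 arrays were tested. Labels were compared with limma 3.58.1 in R 4.3.3, with group means of 3 labels, two-sided, at a Benjamini-Hochberg adjusted p under 0.05, and single genes with an exact permutation test. The replicates of a label were separate mice by the study's methods. Genes were named by the array annotation (34885 probes with 1 gene, 18 with several, 10378 with none). Named genes are all members, list genes called or of the 3 smallest p, the 2 brightest markers of each list and the 3 genes most like each member. Scd1, Cidec, Lep, Trarg1, Aqp7, Fabp4, Ucp1, Retn, Plin1, Pck1, Cidea, Mag, Sqle and the genes separated by Cdkn1a were named after their values were seen. The members and lists were chosen with earlier results of these data known. Alternatives changed the offset, filter, normalisation, array weights, prior, samples in the fit, block and probe, or left out arrays. The limma step was tested on simulated data. The number of arrays limits the precision. Figures were drawn with matplotlib 3.10.9.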

Additional observations from a re-analysis of the deposited data

Results flagged for a closer look

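In 24 sets of 5 arrays (the 7 genes above noise and Adipoq, under 3 labels), 3 held 1 array far from the other 4, and chance alone gives about 1 in 20. All values are log2(signal + 50). Scd2 was 7.66 in Ctrl 2, and 6.83 to 6.93 in the other libraries labelled Ctrl. Ctrl 2 is low in Cdkn1a and lowest in Adipoq. Ctrl 3, also low in Cdkn1a, was at 6.93 in Scd2. Adipoq was 9.68 in Dox 2, and 8.36 to 8.67 in the others labelled Dox. Dox 2 is the library labelled Dox that is low in Cdkn1a. Fasn was 5.60 in Ctrl 5, and 5.97 to 6.08 in the others labelled Ctrl, at signals on either side of the noise threshold.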

How the results depend on the processing

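No member was called in any of the 3 comparisons under any alternative. Without the 6 libraries against their label in Cdkn1a, 6 pathway genes passed in Dox against Ctrl and 5 in Dox + sACVR2B against Ctrl, where 0 passed with all arrays; which libraries remain is set by Cdkn1a. Elovl5 in Dox against Ctrl ran from -0.50 to -0.39 (limma adjusted p 0.108 to 0.566) and Acly from -0.36 to -0.26 when 1 array was left out. The labels share replicate numbers that do not pair the samples: 4 of 15 same-numbered pairs deviated together at a correlation over 0.1 (-0.38 to 0.35), 1 of 15 arrays was most alike an array of its own number, and with the number as a block Elovl5 stayed at -0.45 (limma adjusted p = 0.285) and 0 members and 0 pathway genes were called. Small differences turned in sign, each smaller than its SE with all arrays. In Dox against Ctrl these were Fasn, 0.0065 without the 5 libraries low in Cdkn1a, and Srebf2, 0.018 by its other probe. In Dox + sACVR2B against Dox it was Srebf1, 0.073 with array weights and 0.078 without the 6 or the 5 libraries. In Dox + sACVR2B against Ctrl they were Fasn, 0.021 with array weights and 0.037 without the 5 libraries, Elovl6, 0.013 with array weights, and Srebf2, -0.026 without the 6 libraries, -0.017 without the 5 and -0.0086 with cyclic loess. Leaving out 1 array at a time, Fasn ran from -0.14 to 0.00070, -0.016 to 0.11 and -0.10 to 0.025 in Dox against Ctrl, Dox + sACVR2B against Dox and Dox + sACVR2B against Ctrl, and Srebf2 from -0.036 to 0.019, -0.019 to 0.046 and -0.029 to 0.033. In Dox + sACVR2B against Dox, Scd2 ran from -0.084 to 0.19 and Srebf1 from -0.19 to 0.10, and in Dox + sACVR2B against Ctrl Elovl6 from -0.077 to 0.062. The r with Adipoq ran from -0.41 to 0.048 for Acly, -0.32 to 0.050 for Elovl5, -0.15 to 0.052 for Fasn and -0.094 to 0.72 for Scd2, and 0 to 1 genes passed, the 1 being Scd2 without Ctrl 2. Without the 2 arrays farthest in Adipoq r was 0.12 for Elovl5, and on the 10 arrays high in Cdkn1a it was 0.33 for Elovl5, 0.24 for Acly and 0.26 for Elovl6. The cause of these turns was not tested. Of the alternatives that leave out no single array, 324 values kept their direction and side of the threshold and 15 turned. Signals of Fasn and Elovl6 near noise limit what can be read from them.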
